A study of Mus musculus with 8 samples.

Results

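miR-126a is the mouse form of miR-126, a microRNA (miRNA) of vascular endothelium, and it was followed here through both of its arms, mmu-miR-126a-3p and mmu-miR-126a-5p (miR-126a-3p and miR-126a-5p below). The members were the 2 array names equal to these arms, out of 1023 mouse miRNA names on the array, and each arm had 2 probes. RNA came from total kidney of CD-1 mice, an outbred stock, after 28 days of tacrolimus, 1 mg/kg daily (4 arrays), or of physiological serum, the control (4 arrays). Tacrolimus inhibits calcineurin and is given against transplant rejection, with kidney injury as a known side effect, and by its title the study concerned miRNAs in that injury. Sex and age are not given in the sources read. Nothing in the labels ties each array to its own mouse, so the tests weigh the spread between these RNA samples only, and that spread may be technical. Because whole kidney was used, fewer endothelial cells and less miR-126a per cell cannot be told apart.

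miR-126 is made from an intron of Egfl7, a gene of endothelial cells that encodes a secreted factor of vessel growth. Its 3p arm represses Spred1 and Pik3r2, brakes on signalling by the growth factors VEGF and FGF, and mice that lack miR-126 have leaky vessels. The 5p arm represses Dlk1 and sustains the renewal of endothelial cells in mouse arteries. In the kidney the endothelium lines glomerular and peritubular capillaries. miR-126 is also known from platelets and blood-forming progenitor cells.

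The sequences show which part of the molecule each probe reads. In the RefSeq annotation of GRCm38.p6 the gene Mir126a lies at chr2:26591357-26591429 on the plus strand, inside the span of Egfl7 (chr2:26581083-26592682), and the mature 3p arm at chr2:26591402-26591423. In the hairpin the capitals mark the mature 3p arm and, nearer the 5′ end, the stretch that pairs with the longer probe of the 5p arm. In the mature arm they mark the seed, bases 2 to 8.
Mir126a hairpin: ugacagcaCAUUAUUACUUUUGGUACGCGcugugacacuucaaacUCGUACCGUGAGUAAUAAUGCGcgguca
miR-126a-3p: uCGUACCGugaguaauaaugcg
RefSeq's table holds 1 of the 2 arms as a mature sequence, and miR-126a-5p is the one without an entry. Among its 1679 mature mouse miRNAs, 0 others carry the seed of miR-126a-3p.

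The 4 probes are DNA and read from the 3′ end of the miRNA. In each pair the longer probe has 1 base more at its own 3′ end, given as a capital.
miR-126a-3p probe A_54_P2286: cgcattattactcacggtA
miR-126a-3p probe A_54_P2285: cgcattattactcacggt
miR-126a-5p probe A_54_P1035: cgcgtaccaaaagtaataatG
miR-126a-5p probe A_54_P4367: cgcgtaccaaaagtaataat
The 19-base probe pairs with bases 4 to 22 of miR-126a-3p and the 18-base probe with bases 5 to 22, so neither reads the whole seed. The 21-base probe of the 5p arm pairs with bases 9 to 29 of the hairpin and the 20-base probe with bases 10 to 29. None of the 4 targets occurred in any of the other hairpins of the table (0 exact matches among 1005 hairpins searched). A most similar stretch elsewhere lay in Mir126b, described next, for 3 targets. It shared 15 bases with the target of the 19-base probe, 14 with that of the 18-base probe and 16 with that of the 20-base probe. For the 21-base probe it lay in another hairpin and shared 14 bases. RefSeq places a further miRNA gene, Mir126b, on the opposite strand of the same site (chr2:26591363-26591420). The array has 0 names for miR-126b, so it had no probe of its own and was not measured.
miR-126b-5p: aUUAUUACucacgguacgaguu
miR-126b-3p: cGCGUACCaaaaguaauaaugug
miR-126b-5p shares 19 genome positions with miR-126a-3p, read in the opposite sense, and its seed, in capitals, differs from that of miR-126a-3p.

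Of the 1023 mouse miRNAs 194 could be tested, after a filter that asks for detection on at least 4 of the 8 arrays. Signals are given as log2 of the spot intensity divided by the array's own 75th percentile, taken over the 252 probes that all arrays detected. Levels are compared for the same probe across arrays, and gaps between probes of miR-126a within an array are read only for their change between groups. Between 9.60% and 15.2% of probes were detected per array, and pairs of arrays had a Pearson r of 0.987 to 0.997. The spread of negative control spots was widest on tacrolimus 4 (SD 20.01), control 1 (SD 10.5) and control 3 (SD 9.69), against 4.45 to 5.46 on the others. The tacrolimus arrays filled 1 row of the slide and the control arrays the other, so treatment and slide row cannot be told apart. Markers of kidney tubules were present, with 9 of 10 listed tubule miRNAs tested. Of 6 miRNAs typical of liver, neurons, heart and endocrine cells, 6 were detected on no array. The striated muscle miR-1a-3p, kept in the smooth muscle list, was detected on 2 arrays and miR-133a-3p on 0.

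miR-126a-3p, the arm that promotes vessel integrity, was detected on every array at a nearly constant scaled level, and it did not pass the test between the groups. Over the 8 arrays 158 spots of its 19-base probe were kept, and 158 stood well above background. Its scaled signal was 1.80, 1.85, 1.89 and 1.89 (log2) on tacrolimus arrays 1 to 4, against 2.00, 1.75, 1.93 and 1.88 on control arrays 1 to 4. The tacrolimus values lay within the range of the controls, whose highest array was control 1 and whose lowest was control 2. The signal averaged 1.86 ± 0.04 in tacrolimus kidneys and 1.89 ± 0.10 in control kidneys (log2, SD, n = 4 each). The difference was -0.03 (SE 0.071), a 0.977-fold level with a 95% interval of 0.875 to 1.09 (adjusted p = 0.837, limma). This interval lies inside a change of 1.5-fold in either direction, as it did for 163 of the 194 tested miRNAs. That bound holds for the scaling used here. The SE was 0.396 with the 75th percentile taken over all probes, 0.238 without scaling and 0.317 in the value table the authors deposited.

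The 18-base probe of the same arm gave nearly the same picture. Its signal was 1.31, 1.34, 1.38 and 1.34 on the tacrolimus arrays, against 1.48, 1.26, 1.41 and 1.37 on the control arrays. Again the tacrolimus arrays fell between control 2 and control 1. The difference was -0.04 (SE 0.066, 95% interval -0.19 to 0.11, adjusted p = 0.811 over 357 tested probes, limma). Within each array the 19-base probe exceeded the 18-base probe by 0.494 to 0.552 (log2), and this gap differed by 0.0047 between the groups (exact two-sided permutation p = 0.8).

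miR-126a-5p, the arm known for the renewal of endothelial cells, was dim but measurable, and it did not pass the test either. Its 21-base probe stood well above background in 144 of 144 kept spots, out of 160. On control 4 only 14 of 20 spots were kept, and on control 3 only 15. The scaled signal was -3.74, -3.85, -3.69 and -3.74 (log2) on the tacrolimus arrays, against -3.69, -4.03, -3.83 and -3.72 on the control arrays. The groups overlapped, and control 2 was the lowest array, as it was for miR-126a-3p. The mean was -3.76 ± 0.07 in tacrolimus kidneys and -3.82 ± 0.15 in control kidneys (log2, SD, n = 4 each). The difference was 0.06 (SE 0.086), a 1.04-fold level with a 95% interval of 0.913 to 1.20 (adjusted p = 0.747, limma). With outlier spots kept the difference was 0.015. The sign of neither arm's difference was stable. Without scaling between arrays miR-126a-3p stood at 0.12, and without tacrolimus 4 miR-126a-5p stood at -0.05.

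**Figure D1:**
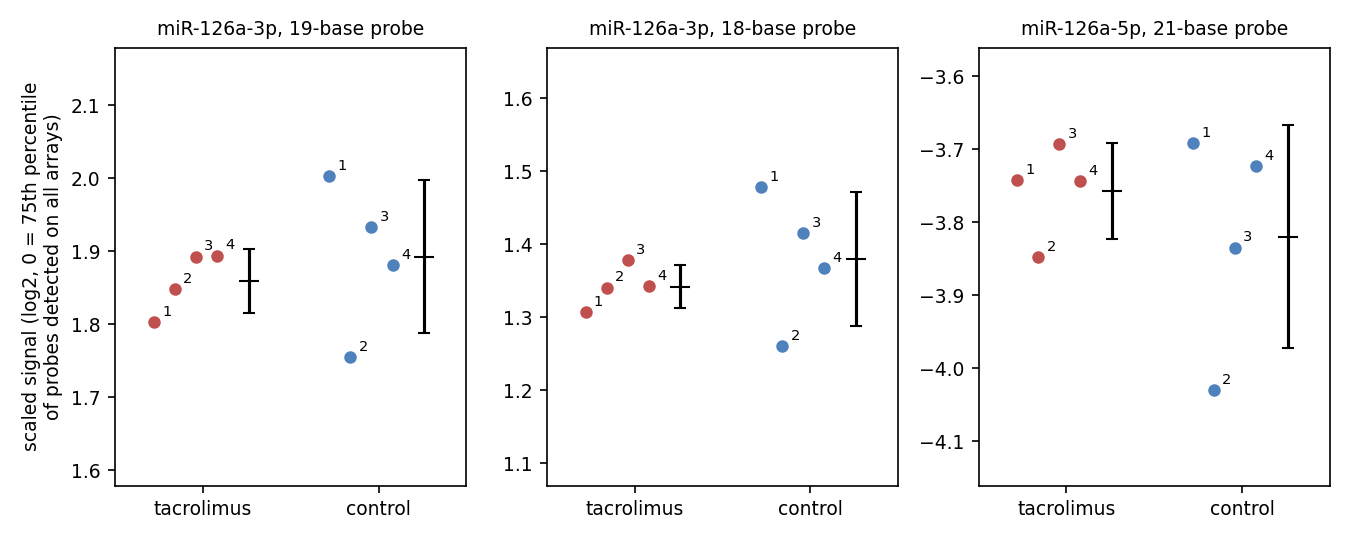
Scaled signal (log2, relative to the array's 75th percentile) of the 3 detected miR-126a probes on each array, with numbers naming the replicate and bars giving the mean ± SD of 4 arrays. Each panel spans the same width of the log2 scale. The tacrolimus arrays fall within the range of the control arrays for all 3 probes.

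The 20-base probe of miR-126a-5p, which lacks the base that pairs with hairpin base 9, gave no usable level. Among 141 kept spots 2 stood well above background, and it was detected on 0 of 8 arrays. Its mean intensity was 16.5 to 21.7 on the tacrolimus arrays and 11.2 to 17.8 on the control arrays, which is 0.906 to 4.45 times the SD of the negative controls of the same array. It was not well above background in either group, so no fold is given. The 21-base probe stood at 8.25 times that SD on tacrolimus 4 and at 32.2 times on tacrolimus 2, so the value of the 5p arm on tacrolimus 4 is the least precise.

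The spots of a probe give the technical error within an array. For the 19-base probe of miR-126a-3p, intensities of 19 or 20 kept spots varied by 2.06% to 6.15% (SD over mean), which puts the error of an array's mean at 0.0068 to 0.020 (log2, SE). For the 21-base probe of miR-126a-5p the 14 to 20 kept spots varied by 3.16% to 18.9%, with an error of 0.012 to 0.063. The lowest of these values came from control 4, where 14 spots were kept. The SD between arrays exceeded the largest of these errors in each group for both arms. For miR-126a-5p in the tacrolimus group it did so barely, at 0.065 against 0.063 on tacrolimus 4. The residual SD of miR-126a-3p between arrays of a group was 0.080, rank 30 from the lowest among 194 tested miRNAs, whose median was 0.13. That of miR-126a-5p was 0.12, rank 82. In the control arrays the SD of all 3 detected probes was larger than in the tacrolimus arrays, a difference that was not tested.

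Before scaling, the arrays differed far more. Mean intensity of the 19-base probe was 7794, 8172, 6121 and 8222 on the tacrolimus arrays, against 10129, 6460, 5462 and 6404 on the control arrays. The brightest array was control 1 and the dimmest control 3, a 1.85-fold range, and the 75th percentile used for scaling had a 1.77-fold range over the same arrays. After scaling the range was 1.19-fold. For miR-126a-5p the intensity was 167, 158, 128 and 165 on the tacrolimus arrays, against 196, 117, 100.3 and 132 on the control arrays. Its range was 1.95-fold before and 1.26-fold after scaling. In the value table the authors deposited, which is not scaled between arrays, miR-126a-3p stood at 4637 ± 768 in tacrolimus kidneys and 4439 ± 1653 in control kidneys, and miR-126a-5p at 59.3 ± 10.2 in tacrolimus kidneys and 50.1 ± 19.5 in control kidneys (SD, n = 4 each).

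**Figure D2:**
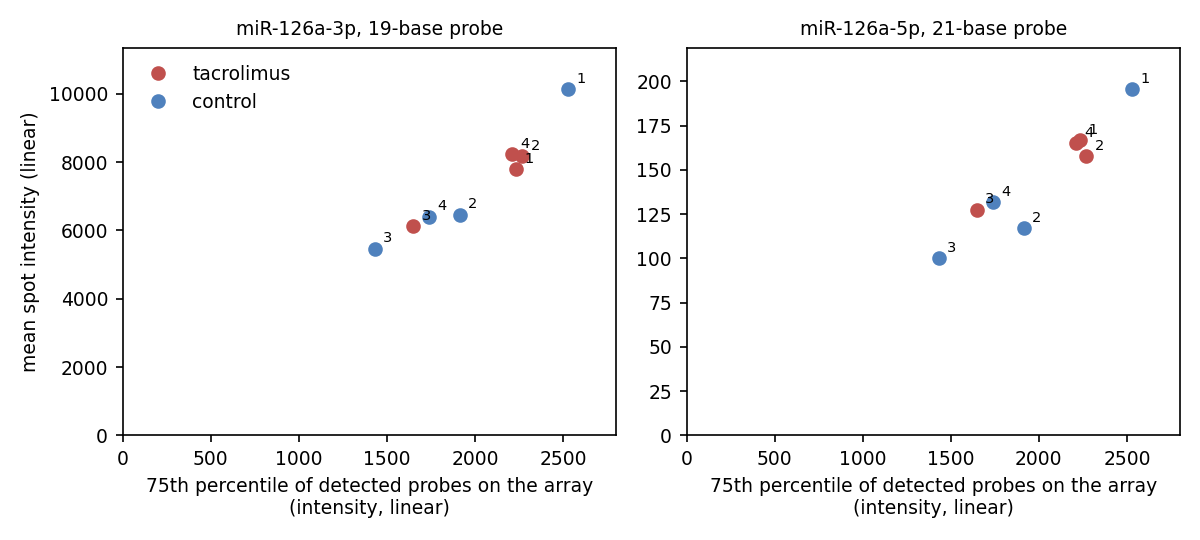
Mean spot intensity (linear) of the 19-base probe of miR-126a-3p and the 21-base probe of miR-126a-5p against the 75th percentile of the detected probes of the same array (intensity, linear), 1 point per array, with numbers naming the replicate. Both arms are brightest on control 1 and dimmest on control 3, which have the highest and lowest percentile.

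The ratio of the arms within an array needs no scaling. The signal of miR-126a-3p minus that of miR-126a-5p was 5.55, 5.70, 5.59 and 5.64 (log2) on the tacrolimus arrays, against 5.69, 5.78, 5.77 and 5.60 on the control arrays. The groups overlapped, with control 1 and control 4 among the tacrolimus values. The ratio averaged 5.62 ± 0.07 in tacrolimus kidneys and 5.71 ± 0.08 in control kidneys, a difference of -0.10 (exact two-sided permutation p = 0.143). The smallest p that 4 against 4 arrays allow is 0.0286. The interval of the difference, from the same permutations at 97.1% confidence, was -0.24 to 0.09. These ratios carry the unknown efficiency of each probe and are no ratio of molecules, so only their change between groups is read. With normexp background the difference was 0.01, of opposite sign (exact permutation p = 0.886). With the software's total gene signal, and likewise in the authors' deposited value table, it was -0.19, the furthest from 0 of the settings tried (exact permutation p = 0.0571).

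Against the whole array, 6 of 194 tested miRNAs passed the threshold (3.09%), and miR-126a added 0 of its 2 arms to them. Without 1 array that count of 6 ranged from 0 to 7, and it was 0 without tacrolimus 1, tacrolimus 4, control 1 or control 2. At an unadjusted p under 0.05 there were 30 of 194 (15.5%) and 0 arms of miR-126a, in limma. The groups did not overlap for 20 of 194 miRNAs (10.3%) and overlapped for both arms. A fit over probes called 0 of 357 (0%, with 53 at an unadjusted p under 0.05), and the 3 tested probes of miR-126a were not among those 53. The absolute difference was larger than that of miR-126a-3p in 84.5% of tested miRNAs and larger than that of miR-126a-5p in 66.0%. The median difference of all tested miRNAs was 0.04.

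Other miRNAs linked to endothelium and vessel growth also held no call. Of 26 listed, among them the arms of miR-126a and miR-126b, 24 were on the array and 22 were tested, of which 0 passed the threshold in either direction and 1 had an unadjusted p under 0.05 (limma) beside 15.5% of all tested miRNAs. The median difference was 0.06 over the 22, and 0.06 over the 20 other than miR-126a, beside 0.04 for all tested miRNAs. Of the 22 differences 19 lay above 0, the side on which the median of all tested miRNAs also lay. That count ranged from 5 to 22 over the settings tried, so that the side of 0 depends on the scaling and on the arrays included. miR-296-5p was detected on 0 arrays and miR-31-5p on 2.

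The smallest p in the list belonged to miR-100-5p, which represses the growth regulator mTOR. Its signal was -2.37, -2.64, -2.61 and -2.53 on the tacrolimus arrays, against -2.67, -2.71, -2.82 and -2.67 on the control arrays. The groups did not overlap, with tacrolimus 2 the lowest of the higher group, but that held for 20 of 194 tested miRNAs (10.3%). In the list it also held for miR-18a-5p, at 0.11. The difference of miR-100-5p was 0.18 (SE 0.077), which did not pass over all miRNAs (adjusted p = 0.301, limma). It was 0.065 without tacrolimus 4, 0.050 without control 1 and tacrolimus 4, and 0.33 unscaled. The hypoxia-induced miR-210-3p, detected on 5 of 8 arrays, had a difference of 0.36 (SE 0.198, adjusted p = 0.452, limma). With normexp background its difference was -0.01. The remaining members other than miR-126a lay between -0.03 (miR-218-5p, which acts on Robo receptors of vessel guidance) and 0.23 (miR-130a-3p, which represses inhibitors of angiogenesis in human endothelial cells). The 4 members of the miR-23 and miR-27 families, which are enriched in endothelium, stood at 0.03 (miR-23a-3p), 0.04 (miR-23b-3p), 0.09 (miR-27a-3p) and 0.05 (miR-27b-3p).

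**Figure D3:**
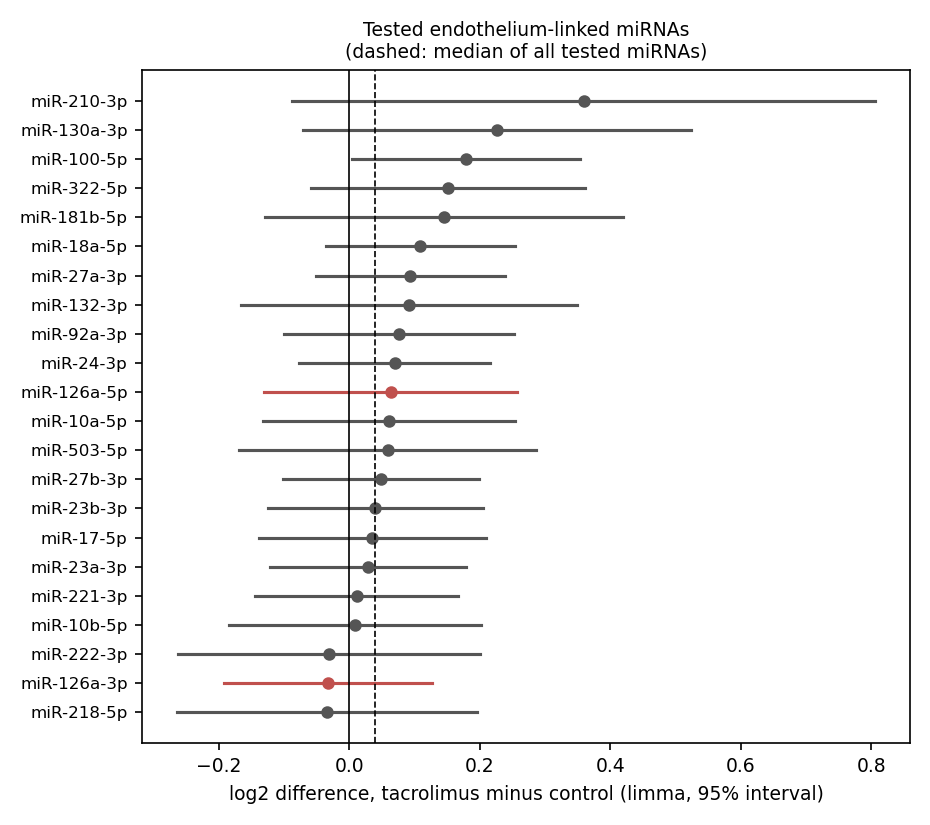
Difference of tacrolimus minus control (log2, points) with its 95% interval in limma (lines) for the 22 tested endothelium-linked miRNAs, both arms of miR-126a in red, and the median of all 194 tested miRNAs as a dashed line at 0.04. The interval of miR-126a-3p runs from -0.19 to 0.13 and that of miR-126a-5p from -0.13 to 0.26.

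Listed miRNAs of other cell types in the same kidneys held no call with all 8 arrays, and their medians lay further from 0 for blood cells. Counts at an unadjusted p under 0.05 stand beside 15.5% of all tested miRNAs. Smooth muscle and pericyte miRNAs, the neighbours of endothelium in the vessel wall, had 2 of 8 listed members tested, miR-143-3p at 0.03 and miR-145a-5p at -0.08, and 0 passed. The 8 include the striated muscle miR-1a-3p, miR-133a-3p and miR-133b-3p, and miR-145b, which was not on the array. So 2 of 8 does not measure how far vessel-wall miRNAs were covered. All 8 leukocyte and platelet miRNAs lay above 0, beside a median of 0.04 for all tested miRNAs. The median of these 8 was 0.45, and 0 passed (4 with an unadjusted p under 0.05, limma). Their mean signal ranged from -3.71 to -3.21 in tacrolimus kidneys and from -4.15 to -3.47 in control kidneys. The myeloid and platelet miR-223-3p stood at 0.61 and the blood cell miR-142a-3p at 0.64. With all 8 arrays the adjusted p of miR-223-3p was 0.0911 (limma). Without tacrolimus 3 it passed, at 0.74 (adjusted p = 0.0323, limma), the 1 of 25 alternatives in which it did. The 3 tested erythrocyte miRNAs lay below 0 with a median of -0.67 and 0 past the threshold (3 at an unadjusted p under 0.05), and miR-451a and miR-486a-5p each stood at -0.67. miR-486a-5p was detected on 5 of 8 arrays and lay at the floor on tacrolimus 4. Its difference was -0.19 with a doubled floor, -0.36 with the percentile over all probes, -0.34 with normexp and -2.01 in the authors' deposited value table. With all 8 arrays its adjusted p was 0.273 (limma). Without control 4 it passed, at -0.98 (adjusted p = 0.0408, limma), the 1 of 24 alternatives in which it did. Their mean ranged from -3.01 to -2.61 in tacrolimus kidneys and from -2.96 to -1.49 in control kidneys. Of 9 tested tubule miRNAs 0 passed and their median was 0.10. Of these, 1 had an unadjusted p under 0.05 (limma), miR-204-5p at 0.34, beside miR-192-3p at 0.16. miR-192-3p was detected on 6 of 8 arrays, and its difference was 0.0053 with a doubled floor. The part of blood cells in the level of miR-126a was not tested.

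Over the 8 arrays the arms of miR-126a followed each other with a Pearson r of 0.656 in scaled signal and 0.963 before scaling, where both follow the brightness of the array. These correlations are descriptions over arrays that share 1 slide and 1 scaling. By Pearson r of scaled signal, miR-126a-3p was most like miR-128-3p (0.892), miR-1904 (0.870), miR-1982-5p (0.859), miR-361-5p (0.842) and let-7d-5p (0.837), out of 192 candidates with a median of 0.258. miR-1982-5p was detected on 4 arrays, and its r was 0.223 without tacrolimus 4. These likenesses depended on the scaling. With quantile normalization the same 5, in that order, had an r of 0.395, 0.264, 0.0091, 0.756 and -0.338 with miR-126a-3p. Without scaling their r was 0.922 to 0.987. miR-126a-5p was most like miR-27b-3p (0.903), miR-204-5p (0.777), miR-155-5p (0.777), miR-361-5p (0.751) and miR-221-3p (0.746), out of 192 with a median of 0.201. With quantile normalization these 5, in that order, had an r of 0.666, 0.405, 0.724, 0.716 and 0.731 with miR-126a-5p. Without scaling their r was 0.742 to 0.984. Without tacrolimus 4 the r with miR-126a-5p was 0.203 for miR-361-5p and 0.310 for miR-204-5p, and without control 2 it was 0.358 and 0.465 for the same miRNAs. miR-361-5p was the 1 name in both sets of 5, yet without control 1, control 3 and tacrolimus 4 (5 arrays) its r was -0.445 with miR-126a-3p and -0.710 with miR-126a-5p.

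**Figure D4:**
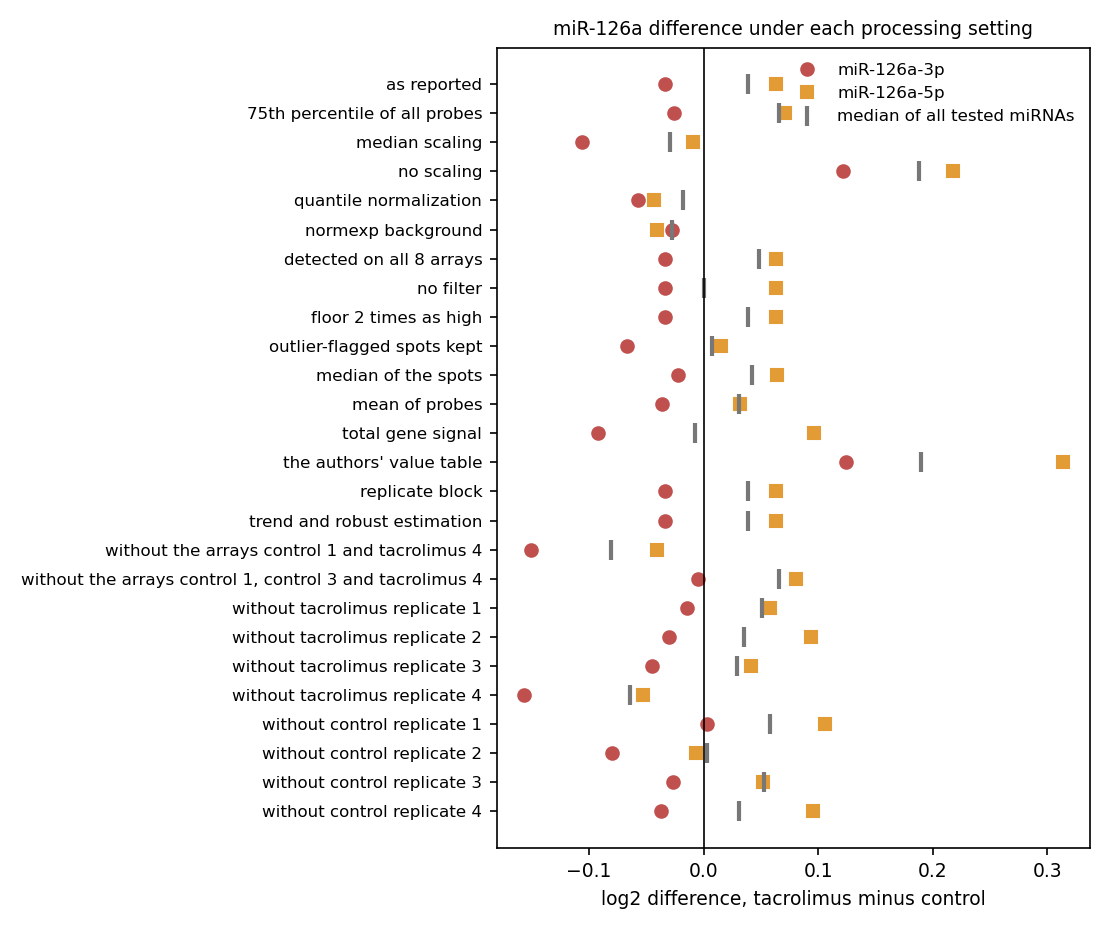
Difference of tacrolimus minus control (log2) of miR-126a-3p (circles), miR-126a-5p (squares) and the median of all tested miRNAs (grey bars) under each processing setting. miR-126a-3p ranges from -0.16 to 0.12 and miR-126a-5p from -0.05 to 0.31.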

How the data were processed

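The authors deposited the scanner output of single-colour (Cy3) Agilent arrays, written by version 10.7.3.1 of Feature Extraction (per the file headers). Per the file headers, each value is a linear spot intensity, background-subtracted and detrended within its array, with no scaling between arrays. The authors' deposited value table matched the total gene signal column for 100% of miRNA spots (tolerance 1e-06), so it is linear and unscaled, with undetected miRNAs at 0.1 (also the median of each column). The submitters' processing notes name limma without a role, and the labels name a kit for mRNA labelling.

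From these, outlier spots were dropped (7.36% to 11.2% per array; 0 spots were saturated), and the spots of each of 2645 probes were averaged. Detection asked for a share of 0.5 or more of a probe's spots well above background. Arrays were scaled by their 75th percentile over the 252 probes that all 8 detected, floored (at -5.96 in log2) and put on the log2 scale. A miRNA was its brightest probe, tested if detected on at least 4 arrays, which left 194. Groups were compared with limma 3.58.1 in R 4.3.3 (lmFit and eBayes, two-sided, no covariate, Benjamini-Hochberg, threshold 0.05), reading with version 1.17.8 of data.table, and single values with exact permutation tests. The limma fit was tested on simulated scaled values, and the permutation test on a fixed example with a known answer. The processing steps before them were not simulated. Precision is limited by the number of arrays. The alternatives were other scalings, background, filter, floor, spot and probe summaries, the total gene signal, the value table, a replicate block, other variance estimation and left-out arrays. Named were both arms with all probes, and the called members of each list or its 2 of smallest p. The 5 miRNAs most correlated with each arm were also named. Named outside this rule, after their values were seen, were miR-296-5p, miR-31-5p, miR-218-5p, miR-130a-3p and miR-18a-5p. So were miR-1a-3p, miR-133a-3p, miR-133b-3p, miR-145b and the miR-23 and miR-27 families. The members and lists were chosen with earlier results of these data known. Sequences and coordinates are from RefSeq (GRCm38.p6) and probe sequences from the array files. The file headers name an older mouse build, so the files' own coordinates are not used here. Same-numbered arrays of the groups correlated at 0.0946 to 0.140 in their deviations over 194 miRNAs, so the numbers were not taken to pair the arrays.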

Additional observations from a re-analysis of the deposited data

Results flagged for a closer look

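Of 30 groups of 4 arrays examined, for both arms, the second 3p probe, their ratios and the named list members, 1 had a stray array. By chance about 1 in 20 groups would, here 1.5. It was not one of miR-126a: for the erythrocyte miR-451a, tacrolimus 4 differed from the mean of the other 3 tacrolimus arrays by -0.39 (log2).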

How the results depend on the processing

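Over 25 alternatives miR-126a-3p passed the threshold in 0 (adjusted p 0.285 to 0.996, limma) and miR-126a-5p in 0 (0.511 to 0.996), but the signs turned. miR-126a-3p was 0.12 unscaled and 0.12 in the authors' value table, and without 1 array -0.16 (without tacrolimus 4) to 0.0033 (without control 1). miR-126a-5p was -0.0093 with median scaling, -0.044 with quantile normalization, -0.040 with normexp, -0.040 without control 1 and tacrolimus 4, and without 1 array -0.053 (without tacrolimus 4) to 0.11, with -0.0068 without control 2. Relative to the median of all tested, which moved to 0.19 unscaled, miR-126a-3p lay below 0 in 25 of 26 settings and miR-126a-5p in 4 of 26. The settings reuse the same arrays and several share a value, so these counts are no test of either arm. As reported, miR-126a-3p lay at -0.073 from that median and miR-126a-5p at 0.024. The 18-base probe was 0.12 unscaled and -0.15 to -0.0055 without 1 array; the other tested probes have their arms' values where the arm is its brightest probe. The change in the arm ratio was 0.013 with normexp, -0.19 with total gene signal and the value table (exact permutation p = 0.0571) and -0.13 to -0.07 without 1 array. The list median was -0.0063 with median scaling, 0.22 unscaled, 2.07e-05 with normexp, -0.0070 with total gene signal, 0.21 in the value table, -0.082 without control 1 and tacrolimus 4, and -0.056 to 0.081 without 1 array. The count past the threshold, 6 as reported, was 0 with the percentile over all probes, unscaled, unfiltered, with a doubled floor, outlier spots kept, spot medians, probe means, total gene signal, the value table, trend and robust estimation, or without control 1, control 3 and tacrolimus 4 (added after seeing the data). It was 1 with normexp and without control 1 and tacrolimus 4, and 0 to 7 without 1 array. With the replicate block, which is also the slide column, it was 0, and the arms kept -0.03 and 0.06 (adjusted p = 0.859 and 0.719). miR-143-3p turned to -0.043 with median scaling, -0.023 with quantile normalization, -0.033 with total gene signal, -0.15 without control 1 and tacrolimus 4 and -0.040 without these and control 3, and ranged from -0.13 (without tacrolimus 4) to 0.064 without 1 array. miR-145a-5p was 0.080 unscaled and 0.066 in the value table, miR-210-3p -0.0091 with normexp, and miR-192-3p -0.047 with normexp, -0.035 with outlier spots kept and -0.040 without control 1 and tacrolimus 4. The causes were not tested. Signal over background limits miR-126a-5p, above all on tacrolimus 4.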
